A study of Sus scrofa with 12 samples.

Results

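The most abundant nuclear transcripts of untreated IPEC-J2 cells were the 125 genes whose mean over the 6 untreated libraries was at least 1000 TPM (transcripts per 1000000 transcripts, the abundance of a gene per unit of length as a share of the library), out of 32518 gene identifiers in the table (0.384%). IPEC-J2 is an established epithelial line from the pig small intestine. Only Ensembl pig identifiers were taken, and the mitochondrial genome was left out, which set aside 12 mitochondrial identifiers and 4 assembled loci without an Ensembl identifier that were also above 1000 TPM. The 4 groups were untreated cells at 6 h, cells exposed to deoxyshikonin at 5 µmol/L for 6 h, untreated cells at 24 h and cells exposed to deoxyshikonin at 5 µmol/L for 24 h, with 3 libraries in each and 12 in all. Deoxyshikonin is a naphthoquinone of the root of Lithospermum and related plants. The controls are described as not treated, with no word on a solvent, and no label says whether the 3 libraries of a group came from separate cultures, so p-values measure the spread between these libraries, which may be technical. Symbols could be given to 94 of the 125 members, and the other 31 are named by identifier.

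The transcripts that fill most of a cell's messenger RNA pool are as a rule those of the translation machinery, the cytoskeleton, glycolysis, protein folding and iron storage, together with a few products of the cell's own lineage, in an epithelium the simple keratins and the S100 and annexin proteins that bind calcium and membranes. Because TPM are shares of a fixed total, a rise of some abundant transcripts lowers the values of all others. Heat shock protein and polyubiquitin genes are strongly transcribed when misfolded proteins accumulate, and ferritin and metallothionein genes respond to iron, zinc and oxidants.

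Each library summed to 1000000 TPM within rounding, the read depth behind the values is unknown, and no counting interval could be given. The replicate spread of the members was small: the median coefficient of variation over the 3 libraries was 2.29% in untreated cells at 6 h, 3.48% in treated cells at 6 h, 4.46% in untreated cells at 24 h and 2.36% in treated cells at 24 h, against 4.81%, 6.62%, 6.85% and 6.75% over the 11897 genes tested. Of 10 listed markers of intestinal epithelium 9 were found, with summed levels of 5572 to 5729 TPM in untreated cells at 6 h, 4207 to 4421 in treated cells at 6 h, 6057 to 6316 in untreated cells at 24 h and 6237 to 6402 in treated cells at 24 h. KRT8 and KRT18, themselves members, made up much of that sum, while the intestinal markers VIL1 and CDX2 had means of at most 3.06 and 0.0567 TPM in any group. CLDN4, of tight junctions, went against the sum at 6 h, with means of 646 TPM in untreated and 1302 TPM in treated cells. So did CDH1 (528 and 581 TPM) and ELF3 (48.36 and 70.54 TPM), while EPCAM, KRT8, KRT18, VIL1 and CLDN7 went with it. The listed markers of fibroblasts summed to at most 9.96 TPM, those of endothelium to at most 25.09, those of leukocytes to at most 55.9 and those of muscle to at most 0.07 in any library.

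In untreated cells the pool was headed by S100A6, a small protein that binds calcium, at 38543 TPM, followed by an identifier without a symbol, ENSSSCG00000004489, at 18164 TPM. The next 8 were ANXA2, which binds phospholipids in the presence of calcium, at 8562 TPM, the ribosomal stalk protein RPLP1 at 8254, the glycolytic enzyme GAPDH at 7572, the actin monomer binding protein TMSB10 at 7529, ENSSSCG00000033310 at 7419, and the ribosomal proteins RPS24 at 7361, RPLP2 at 6751 and RPS2 at 6652 TPM. These levels are what chose the members and are a description only. Above 5000 TPM stood 14 members, between 2000 and 5000 stood 51, and 60 lay between 1000 and 2000, and 27 members held 50% of the members' TPM. Just inside the threshold were LDHA at 1025.9, SSR4 at 1006.7 and MT1X at 1004.5 TPM, and just outside were TMSB4X at 982.4, RPS29 at 950.4 and ENSSSCG00000006581 at 942.6 TPM.

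By function, 37 members were listed ribosomal proteins, 17 of the large and 20 of the small subunit. A further 6 were annexins, S100 proteins or a galectin, 5 were actins or their partners, 5 were glycolytic enzymes, 4 were keratins or tubulin, 4 were translation factors and 3 were chaperones. Of 80 ribosomal protein symbols searched, 33 were matched to no identifier in the table, so the 37 are a partial count. Some symbols among the members were not typical of an abundant epithelial message, and these are given as uncertain. CD74, ERBB3 and NUDT3 each lie next to a ribosomal protein gene (RPS14, RPS26 and RPS10) in the RefSeq gene order of assembly Sscrofa11.1. Those 3 ribosomal symbols were matched to no identifier in the table, where the genes may still stand without a symbol. A ribosomal protein gene whose symbol was matched to no identifier lay within 2 places of 3 of the 50 placed members that are not ribosomal proteins (6%). The same held for 0.672% of the 19483 placed protein-coding genes that are not listed ribosomal proteins, members included. This search was made after the symbols were seen, so no conclusion is drawn from these shares. Within the span of COL19A1 lies a sequence that matched the RPL32 messenger RNA at 94.4% identity over all of its 625 bases, the only such match in the 88 member spans searched. HBB, a globin gene, was listed at 1985 to 2126 TPM in untreated and 1676 to 1984 TPM in treated cells at 6 h, and at 1689 to 1997 and 1798 to 1895 TPM at 24 h, whereas the erythroid marker ALAS2 was listed at 0 in all libraries. How the reads of such neighbouring or duplicated genes were assigned was not tested.

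The 125 members held 36.6%, 36.3% and 36.7% of all TPM in the libraries of untreated cells at 6 h and 36.7%, 37% and 36.6% in those of treated cells at 6 h. At 24 h they held 38.4%, 37.7% and 39.9% in untreated and 38.4%, 37.3% and 37.7% in treated cells. The treated and untreated libraries overlapped at both times. The share differed by 0.243 percentage points at 6 h (36.8 ± 0.234% against 36.5 ± 0.238%, SD, n = 3 each, two-sided exact permutation p = 0.5) and by -0.866 points at 24 h (37.8 ± 0.523% against 38.6 ± 1.11%, exact permutation p = 0.2), where 3 libraries against 3 cannot give a p below 0.1. The untreated libraries also chose the members, which leans towards lower treated shares, so these 2 comparisons are not independent of the choice. The 6 h difference turned to -0.18 points when the mitochondrial genome was left out of the total, and the 24 h difference was -0.256 without replicate 3 and -1.33 without replicate 2 of the untreated cells. With members chosen over all 12 libraries, a choice that includes the treated ones, the 6 h difference was positive and much larger. Treated cells at 24 h stood 1.02 points above treated cells at 6 h, with no overlap (exact permutation p = 0.1). That difference turned to -0.314 points with members from 500 TPM and to -2.07 with members chosen over all 12 libraries, and it was 0.346 with overlapping libraries (exact permutation p = 0.5) without the 4 identifiers of wide replicate spread described below. Those 4 were set aside after the data were seen.

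**Figure D1:**
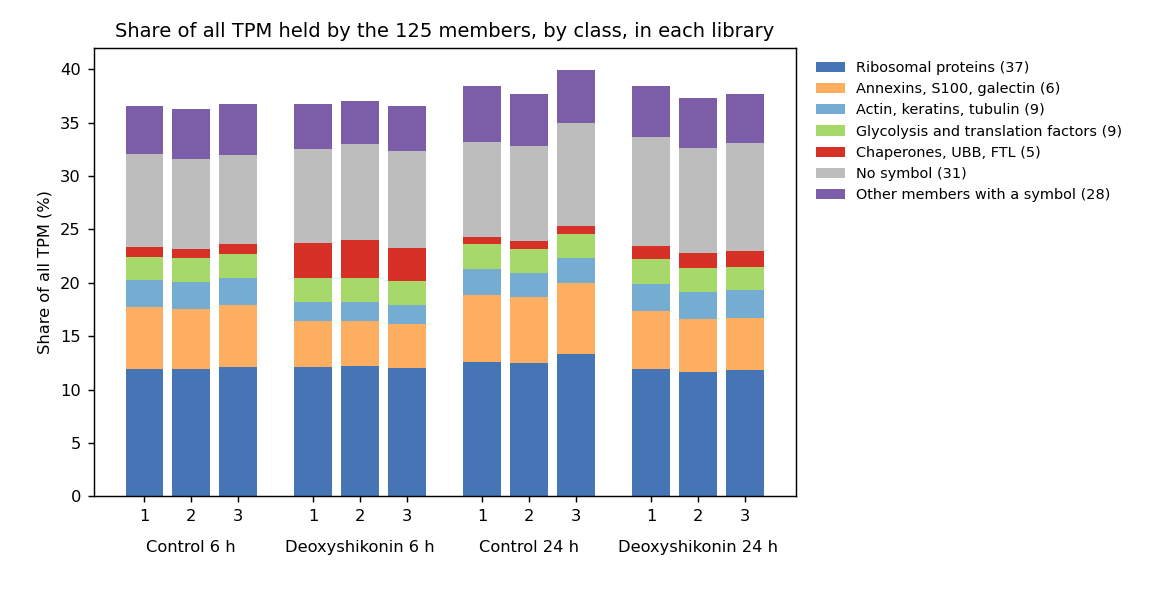
Stacked bars give the share of all TPM (%) held by the 125 members in each of the 12 libraries, split into 7 classes; the numbers under the bars are replicates. The whole bars run from 36.3% to 39.9%, while the red band of chaperones, UBB and FTL is widest in the 3 treated libraries at 6 h.

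By class, as means of 3 libraries and without a test, the shares were as follows. S100A6 alone held 3.46% of all TPM in untreated and 2.43% in treated cells at 6 h, and 4.25% and 2.86% at 24 h. The 3 chaperones held 0.624% and 1.65% at 6 h and stood at 0.455% and 0.673% at 24 h, and the polyubiquitin gene UBB held 0.122%, 1.13%, 0.153% and 0.165% in the same order. The keratins and tubulin held 0.851% and 0.438% at 6 h and 0.714% and 0.742% at 24 h. The 37 ribosomal proteins held 12% and 12.1% at 6 h and 12.8% and 11.8% at 24 h, more than any other functional list in each group. For comparison, the mitochondrial genome held 11.9%, 10.9%, 12.4% and 11.1% of all TPM.

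The change of each gene was fitted with limma on log2(TPM + 1) over all 11897 tested genes, with Benjamini-Hochberg adjustment and a threshold of 0.05, and is called a change only past that threshold. All 125 members passed the filter of a mean of at least 1 TPM. At 6 h deoxyshikonin changed 68 members, 23 upward and 45 downward. That is 54.4% of the members against 75.4% of all tested genes, with 18.4% against 26.6% upward and 36% against 48.7% downward. At 24 h it changed 82 members, 28 upward and 54 downward, or 65.6% against 50.3% of all tested genes, with 22.4% against 32.2% upward and 43.2% against 18.1% downward. The share that passes depends on precision: the median SE was 0.0398 in the members and 0.0781 in all tested genes. By size, 11.2% of the members against 16% of all tested genes changed by at least 0.5 at 24 h. Changes were also smaller than elsewhere at 6 h: the median absolute log2 change was 0.11 in the members and 0.47 in all tested genes, and at 24 h it was 0.16 against 0.22. Changes of at least 0.5 in size were found in 26 members at 6 h, 8 upward and 18 downward (45.9%, 14.9% and 31.1% of all tested genes), and in 14 at 24 h, 9 upward and 5 downward (16%, 9.37% and 6.6%). Changes of at least 1 were found in 14 members at 6 h, 6 upward and 8 downward (15.9%, 5.62% and 10.3%), and in 8 at 24 h, 7 upward and 1 downward (4.43%, 2.35% and 2.08%). The 7 include the 4 identifiers of wide replicate spread described below, which varied together. Treated and untreated libraries did not overlap in 77 members at 6 h (79.2% of all tested genes) and in 85 at 24 h (56%). The untreated libraries that chose the members also serve as the baseline here, so these comparisons are not independent of the choice. With members chosen from the untreated cells of the other time point, 69 were changed at 6 h (27 up, 42 down) and 78 at 24 h (25 up, 53 down).

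The direction of small changes depended on how the libraries were scaled. Of the members changed at 6 h, 33.8% were higher on TPM as deposited, 67.1% after median-of-ratios rescaling, 14.4% after quantile normalization and 24.6% after scaling to the other nuclear genes. At 24 h these values were 34.1%, 18.9%, 28.1% and 21.1%. With median-of-ratios rescaling 57 members were higher and 28 lower at 6 h (75.2% of all tested genes changed, 34.3% higher and 41% lower), and 17 were higher and 73 lower at 24 h (49.1%, 24.3% and 24.7%). It moved the median log2 change of all tested genes at 6 h from -0.20 to -0.07. A stricter count, chosen after seeing the data, took only changes called in the same direction under all 4 scalings. By that count 13 members rose and 27 fell at 6 h (25.4% and 37.8% of all tested genes, 63.2% together), and 16 rose and 51 fell at 24 h (23.4% and 18%, 41.5% together). Unless a scaling is named, the genes described as changed below belong to this stricter count for that time.

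**Figure D2:**
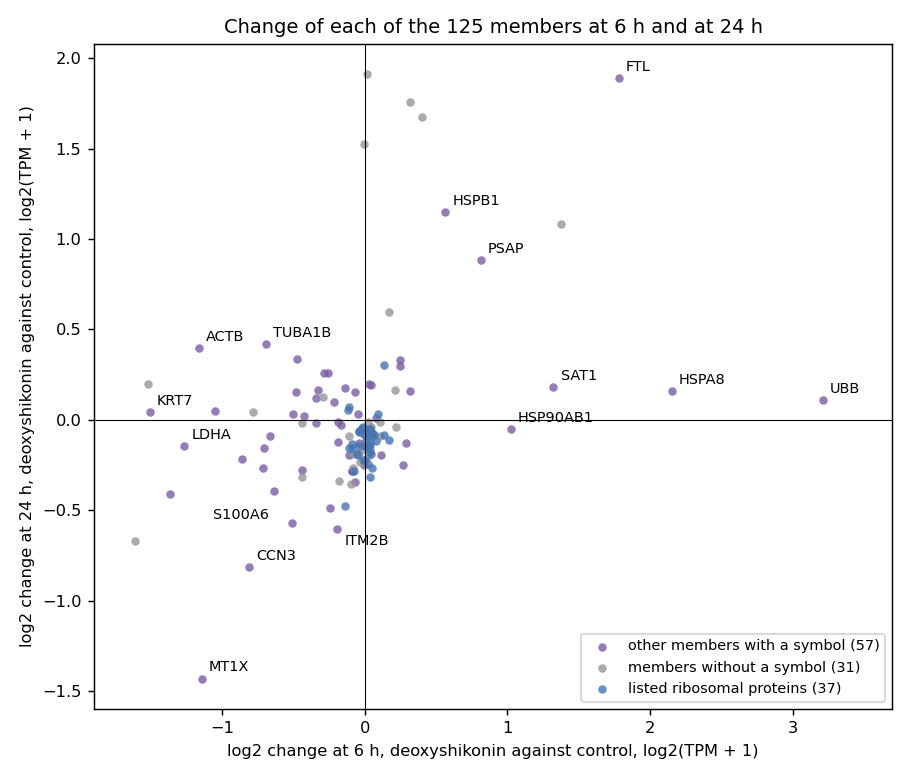
Each point is a member, with its log2 change on log2(TPM + 1) at 6 h on the x axis and at 24 h on the y axis, both deoxyshikonin against control, coloured by class. Most ribosomal proteins lie close to the centre, UBB (3.21 at 6 h) and HSPA8 (2.15) lie far right near zero at 24 h, FTL lies high at both times and MT1X lies low at both times.

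UBB and HSPA8 had the highest estimates of the members at 6 h. UBB, which encodes a string of ubiquitin units, was at 1189, 1204 and 1266 TPM in untreated and at 11222, 12650.5 and 10139.8 TPM in treated cells at 6 h. The treated libraries were all far above the untreated ones, and the log2 change was 3.21 ± 0.07 (SE, adjusted p = 3.08e-11). At 24 h UBB was at 1554, 1479 and 1544 TPM in untreated and 1687, 1585 and 1669 TPM after treatment, a log2 difference of 0.11 ± 0.07 (SE, adjusted p = 0.183). HSPA8, the constitutive cytosolic chaperone of the HSP70 family, went from 2171, 2193 and 2187 to 9435, 11064 and 8748 TPM at 6 h, a log2 change of 2.15 ± 0.06 (SE, adjusted p = 4.58e-10). At 24 h it was at 1342, 1403 and 1371 and 1539, 1535 and 1517 TPM, a difference of 0.16 ± 0.06 (SE, adjusted p = 0.0633). HSP90AB1, the constitutive HSP90, went from 1407, 1445 and 1425 to 2857, 3088 and 2763 TPM at 6 h, a log2 change of 1.02 ± 0.05 (SE, adjusted p = 6.53e-09), and its libraries overlapped at 24 h with a difference of -0.05 ± 0.05 (SE, adjusted p = 0.383). Both chaperones and UBB stood high in 3 of 3 treated libraries at 6 h and close to the untreated level at 24 h. Ubiquitin units are near-identical between genes, so the value of UBB is uncertain.

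The small heat shock protein HSPB1 was higher in treated cells at both times. It was at 3092, 2467 and 2333 TPM in untreated and 3807, 3709.9 and 4065 TPM in treated cells at 6 h, and at 1605, 1557 and 1814 and 2913, 3892 and 4381 TPM at 24 h. The groups did not overlap at either time, with log2 changes of 0.56 ± 0.14 (SE, adjusted p = 0.00328) and 1.15 ± 0.14 (SE, adjusted p = 5.7e-05), although its spread between libraries was among the widest of the members.

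**Figure D3:**
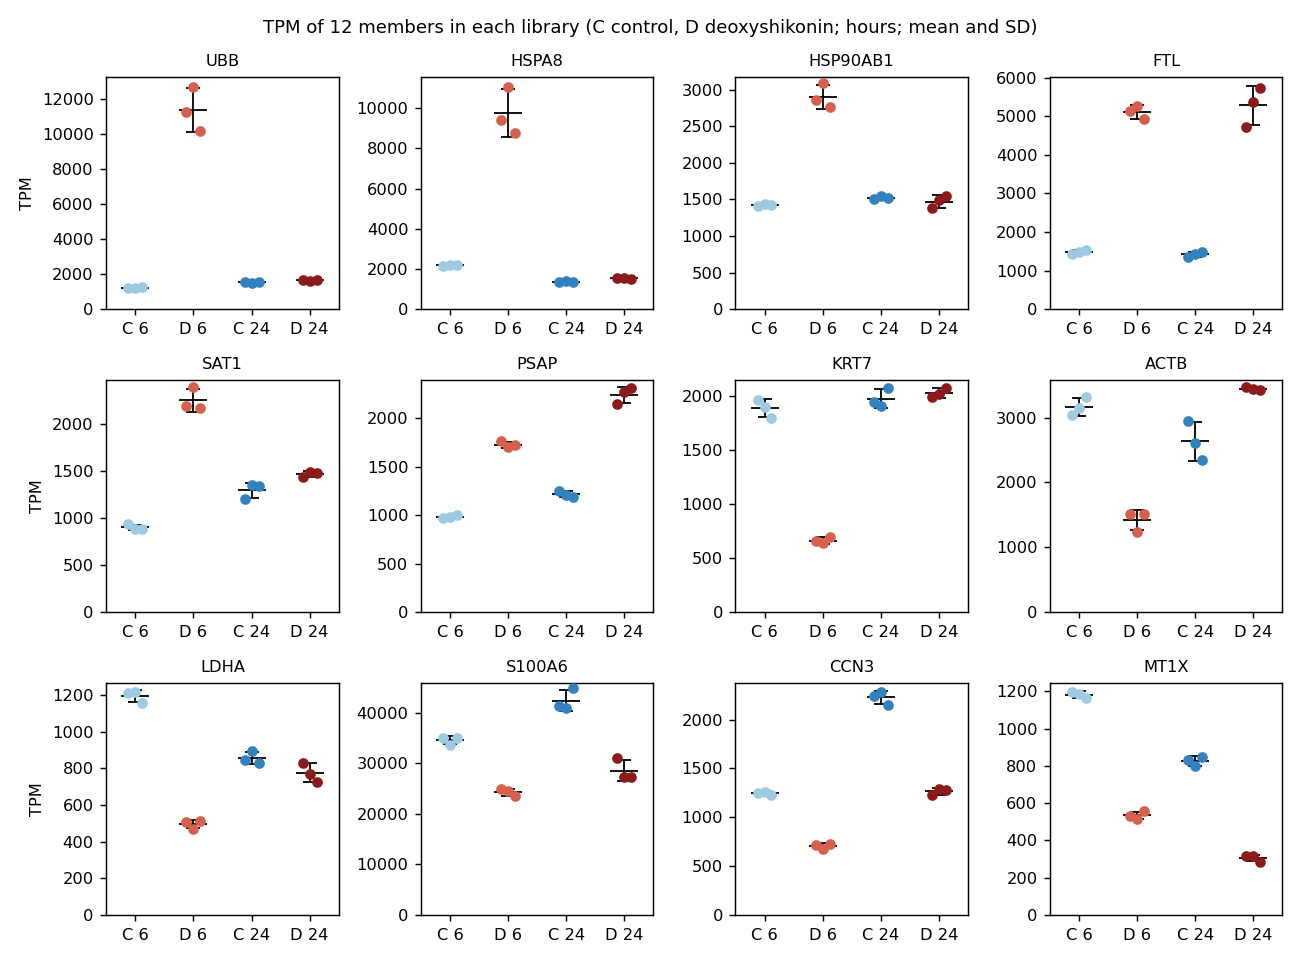
Points give the TPM of 12 members in each library and bars the mean and SD of the 3 libraries, for control (C) and deoxyshikonin (D) at 6 h and 24 h; each panel has its own axis from 0. UBB, HSPA8, HSP90AB1 and SAT1 peak in treated cells at 6 h, FTL and PSAP are high in treated cells at both times, KRT7, ACTB and LDHA are lowest in treated cells at 6 h, and S100A6, CCN3 and MT1X are lower in treated cells at both times.

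A group of members was higher at both times. FTL, the light chain of the iron store ferritin, was at 1441, 1489 and 1530.4 TPM in untreated and 5129.9, 5279.8 and 4926 TPM in treated cells at 6 h. At 24 h it was at 1355, 1419 and 1481 and 4726, 5376 and 5739 TPM. The log2 changes were 1.78 ± 0.06 (SE, adjusted p = 1.27e-09) and 1.89 ± 0.06 (SE, adjusted p = 5.46e-09), and treated and untreated libraries lay far apart. The identifier most like FTL over the 12 libraries, ENSSSCG00000014540, went from 2901, 2932 and 2947 to 7556, 7905 and 7351 TPM at 6 h and from 3109.7, 3066 and 3173 to 6484, 6651 and 6691 TPM at 24 h (Pearson r of 0.9867 with FTL, as a description). PSAP, the precursor of the lysosomal saposins, went from 969.9, 983 and 997 to 1763, 1702 and 1723 TPM at 6 h and from 1251, 1213 and 1185 to 2147, 2269.7 and 2312 TPM at 24 h. Its log2 changes were 0.81 ± 0.03 (SE, adjusted p = 3.17e-09) and 0.88 ± 0.03 (SE, adjusted p = 1.52e-08). PKM, a glycolytic enzyme that makes pyruvate, rose by a log2 change of 0.25 at 6 h (adjusted p = 0.00011) and 0.30 at 24 h (adjusted p = 9.64e-05).

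SAT1, which acetylates polyamines as the limiting step of their breakdown, rose mainly at 6 h. It was at 934, 883 and 887 TPM in untreated and 2193, 2396 and 2178 TPM after treatment (log2 change 1.32 ± 0.05 (SE, adjusted p = 2.03e-09)). At 24 h it was at 1206, 1351 and 1339 and 1440.0, 1491 and 1485 TPM, and the difference of 0.18 passed the threshold on TPM as deposited (adjusted p = 0.0108) but under none of the 3 other scalings. PLAU, the urokinase plasminogen activator, rose at 6 h by 0.29 ± 0.04 (SE, adjusted p = 5.5e-05) on the log2 scale.

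The 4 keratin and tubulin members fell at 6 h, and at 24 h 1 was higher, 1 lower and 2 did not pass the threshold. Keratins 7, 8 and 18 are the intermediate filament proteins of simple epithelia. KRT7 was at 1959, 1893 and 1796 TPM in untreated and 655, 633 and 694 TPM in treated cells at 6 h, a log2 change of -1.51 ± 0.05 (SE, adjusted p = 4.58e-10). At 24 h its libraries lay at 1940.0, 1900.3 and 2069 and 1989.5, 2014 and 2073 TPM and overlapped, with a difference of 0.04 ± 0.05 (SE, adjusted p = 0.478). KRT18 went from 1729.9, 1647 and 1703 to 814, 822 and 811 TPM at 6 h, and was at 1411, 1433 and 1503 and 1482, 1493 and 1523 TPM at 24 h. Its log2 changes were -1.05 ± 0.03 (SE, adjusted p = 3.61e-10) and 0.05 ± 0.03 (SE, adjusted p = 0.195). KRT8, the partner of KRT18, fell at both times, with changes of -0.86 ± 0.03 (SE, adjusted p = 2.89e-09) and -0.22 ± 0.03 (SE, adjusted p = 0.000381) on the log2 scale. TUBA1B, an alpha tubulin of microtubules, fell at 6 h from 2673, 2789.9 and 2848 to 1754, 1624 and 1764 TPM and was higher than in untreated cells at 24 h, at 1967, 1998 and 1951 against 1488, 1457 and 1479.5 TPM (log2 change 0.42 ± 0.04 (SE, adjusted p = 3.82e-06)). In bulk libraries, fewer cells of a kind and less of a transcript per cell cannot be told apart.

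Of the 5 actin members 3 fell at 6 h, and 2 rose and 0 fell at 24 h. ACTB was at 3039, 3153 and 3314 TPM in untreated and 1512, 1234 and 1514 TPM in treated cells at 6 h, a log2 change of -1.16 ± 0.09 (SE, adjusted p = 3.18e-07). At 24 h it was at 2956, 2602 and 2348 in untreated and 3469.6, 3449 and 3429 TPM in treated cells, all above the untreated libraries of that time (log2 change 0.39 ± 0.09 (SE, adjusted p = 0.00352)). ACTG1, the near-identical gamma actin, differed much less, with -0.14 at 6 h (adjusted p = 0.0347) and 0.18 at 24 h (adjusted p = 0.0178) on TPM as deposited, and neither call held under all 4 scalings. Reads of these 2 genes may be hard to separate. CFL1, which severs actin filaments, fell by 0.29 at 6 h (adjusted p = 0.000221) and rose by 0.26 at 24 h (adjusted p = 0.00119). MYL6, a myosin light chain, fell by 0.34 at 6 h (adjusted p = 3.14e-05).

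Of the 6 annexin, S100 and galectin members 4 fell at 6 h, and S100A6 was lower at both times on TPM as deposited. S100A6 was at 35151, 33708 and 35039.7 TPM in untreated and 24879, 24575 and 23557 TPM in treated cells at 6 h, and at 41387, 41076 and 44896 and 31045, 27398 and 27382 TPM at 24 h. The groups did not overlap at either time, and the log2 changes were -0.51 ± 0.05 (SE, adjusted p = 2.87e-06) and -0.57 ± 0.05 (SE, adjusted p = 5.22e-06). Quantile normalization gives each rank the same value in all libraries, so it can hide a fall of a gene that keeps a top rank. After it the log2 changes of S100A6 were -0.10 and 0.00 and did not pass the threshold, which keeps S100A6 out of the stricter count. ANXA2 went from 8971, 8804 and 8914 to 6301, 6192 and 6302 TPM at 6 h (-0.51 ± 0.03 (SE, adjusted p = 2.39e-08)) and was at 8251, 7945 and 8488 and 8563, 8460.3 and 8198 TPM at 24 h (0.03 ± 0.03 (SE, adjusted p = 0.367)). S100A10, which forms a complex with ANXA2, fell by 0.33 at 6 h (adjusted p = 3.11e-06). ANXA1 fell by 0.71 (adjusted p = 8.68e-09) and S100A11 by 0.48 (adjusted p = 3.66e-08) at 6 h. LGALS1, a galectin that binds galactosides, did not pass the threshold at 6 h (0.03 ± 0.04 (SE, adjusted p = 0.552)).

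Further members that fell belong to none of the lists and, apart from CCN3 and the identifiers, were named after their values were seen. CCN3, a secreted matricellular protein, was at 1248, 1263 and 1230.0 and 717, 677 and 731 TPM at 6 h and at 2246, 2283 and 2154 and 1227, 1293 and 1280.1 TPM at 24 h. Its log2 changes were -0.82 ± 0.04 (SE, adjusted p = 5.44e-09) and -0.81 ± 0.04 (SE, adjusted p = 3.75e-08), nearly equal, while its untreated level was higher at 24 h. EZR, which ties the membrane to actin, fell by 0.64 at 6 h (adjusted p = 1.42e-08) and by 0.39 at 24 h (adjusted p = 3.03e-06) on the log2 scale. COL17A1, the collagen of hemidesmosomes, fell by 0.43 at 6 h (adjusted p = 6.59e-06), and was at 2409, 2395 and 2154 and 2397, 2371 and 2275 TPM at 24 h. CTSC, the lysosomal dipeptidyl peptidase, fell by 0.67 at 6 h (adjusted p = 5.68e-08). The identifiers ENSSSCG00000017448 and ENSSSCG00000008115 had the lowest estimates at 6 h and fell by 1.61 (adjusted p = 2.36e-09) and 1.52 (adjusted p = 1.44e-10).

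MT1X, a metallothionein that binds zinc and copper, was the member that fell most at 24 h. It was at 1198, 1187 and 1164 and 532, 517 and 556 TPM at 6 h and at 829.9, 798 and 850.3 and 318, 315 and 285 TPM at 24 h. The log2 changes were -1.14 ± 0.05 (SE, adjusted p = 2.77e-09) and -1.43 ± 0.05 (SE, adjusted p = 4.83e-09), and MT1X was the only member with a fall of at least 1 at 24 h. Metallothionein genes are close copies of each other, so this identifier may hold reads of others. ITM2B, a membrane protein, was at 1184, 1215 and 1169.5 and 823, 781 and 745 TPM at 24 h, a log2 change of -0.60 ± 0.04 (SE, adjusted p = 2.41e-07). SLC25A3, which carries phosphate into mitochondria, fell by 0.49 at 24 h (adjusted p = 3.43e-07).

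Among the 5 glycolytic members the enzymes did not move together. LDHA, which turns pyruvate into lactate, was at 1210.4, 1217 and 1155 TPM in untreated and 508, 469 and 510.4 TPM in treated cells at 6 h, a log2 change of -1.27 ± 0.05 (SE, adjusted p = 3.37e-09). At 24 h its libraries lay at 848, 894 and 831 and 830.0, 771 and 728 TPM, and the difference of -0.14 ± 0.05 (SE, adjusted p = 0.0383) passed the threshold on TPM as deposited but not after quantile normalization (-0.09). ALDOA, the aldolase, rose at 24 h by 0.33 ± 0.06 (SE, adjusted p = 0.000549). GAPDH, often used as a reference gene, was at 7422, 7868 and 8045 and 7445, 6896 and 7307 TPM at 6 h (-0.11 ± 0.06 (SE, adjusted p = 0.0999)) and at 7974, 7196 and 6926 and 6776, 6358 and 6152 TPM at 24 h (-0.19 ± 0.06 (SE, adjusted p = 0.0137)). The GAPDH libraries overlapped at 6 h, and its 24 h call was lost, for example, without replicate 3 of the treated cells (-0.16).

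The ribosomal proteins had changes near 0 at 6 h and small falls at 24 h. At 6 h 3 of the 37 were higher, 5 were lower and 29 did not pass the threshold on TPM as deposited, with a median log2 change of 0.02. After median-of-ratios rescaling 26 were higher and 0 lower, and under all 4 scalings together 0 rose and 0 fell. At 24 h 2 were higher and 20 lower, with a median of -0.12 against 0.09 over all tested genes, and after median-of-ratios rescaling 1 was higher and 29 lower. Under all 4 scalings 20 fell and 1, RPS20, rose. RPL3, of the large subunit, fell most, from 1781, 1753 and 1797 to 1305, 1248 and 1277 TPM (-0.48 ± 0.03 (SE, adjusted p = 1.57e-07)), and its libraries did not overlap. RPSA, of the small subunit, went from 3663, 3851 and 3939 to 3094, 3037 and 3046 TPM (-0.32 ± 0.03 (SE, adjusted p = 7.27e-06)). RPS20 was at 3041, 3006 and 3335 and 3578, 3894 and 4123 TPM (0.30 ± 0.07 (SE, adjusted p = 0.00609)). Ribosomal protein genes have many processed copies in mammalian genomes, so single values are uncertain.

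The 4 translation factors did not follow one course. EEF2, which moves the ribosome along the message, was at 1798, 1887 and 1858 TPM in untreated and 2277, 2206 and 2201 TPM in treated cells at 6 h, a log2 change of 0.27 ± 0.03 (SE, adjusted p = 1.04e-05). At 24 h it was at 2712, 2653 and 2524 and 2226, 2215 and 2199.8 TPM, a log2 change of -0.25 ± 0.03 (SE, adjusted p = 7.62e-05). EEF1B2, an exchange factor of elongation, and BTF3, part of the nascent chain complex, did not pass the threshold at 6 h and fell at 24 h, by 0.25 (adjusted p = 0.000863) and 0.28 (adjusted p = 0.000538). TPT1 was higher by 0.31 at 6 h (adjusted p = 6.74e-06) on TPM as deposited, but by 0.06 after quantile normalization, which did not pass.

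Over all tested genes of the wider lists, members or not, the stricter count is given beside 25.4% higher and 37.8% lower of all tested genes at 6 h and 23.4% and 18% at 24 h, and the medians beside -0.20 and 0.09. Of 11 chaperone genes 9 rose and 0 fell at 6 h, and 2 rose and 6 fell at 24 h, with median log2 changes of 0.56 and -0.21. Of 9 ubiquitin and proteasome genes 6 rose and 0 fell at 6 h, and 6 rose and 1 fell at 24 h (medians 0.51 and 0.30). Of 11 iron storage and redox genes 8 rose and 0 fell at each time (1.78 and 1.67). Of 13 actin genes 1 rose and 9 fell at 6 h, and 4 rose and 0 fell at 24 h (-0.64 and 0.17), and of 8 keratin, vimentin and tubulin genes 1 rose and 6 fell at 6 h, and 4 rose and 1 fell at 24 h (-0.78 and 0.20). Of 9 annexin, S100 and galectin genes 0 rose and 5 fell at 6 h, and 1 rose and 3 fell at 24 h (-0.48 and 0.03). Of 12 glycolytic genes 2 rose and 2 fell at 6 h, and 6 rose and 1 fell at 24 h (0.00 and 0.27). Of 19 nuclear genes of the respiratory chain and ATP synthase 1 rose and 10 fell at 6 h, and 6 rose and 5 fell at 24 h (-0.29 and 0.01). Among 21 ribosomal protein genes of the large subunit 0 rose and 0 fell at 6 h, and 0 rose and 9 fell at 24 h (-0.0007 and -0.09). Among 26 of the small subunit 0 rose and 0 fell at 6 h, and 1 rose and 13 fell at 24 h (0.04 and -0.13). Among 8 translation factor genes 2 rose and 1 fell at 6 h, and 0 rose and 6 fell at 24 h (-0.03 and -0.25).

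**Figure D4:**
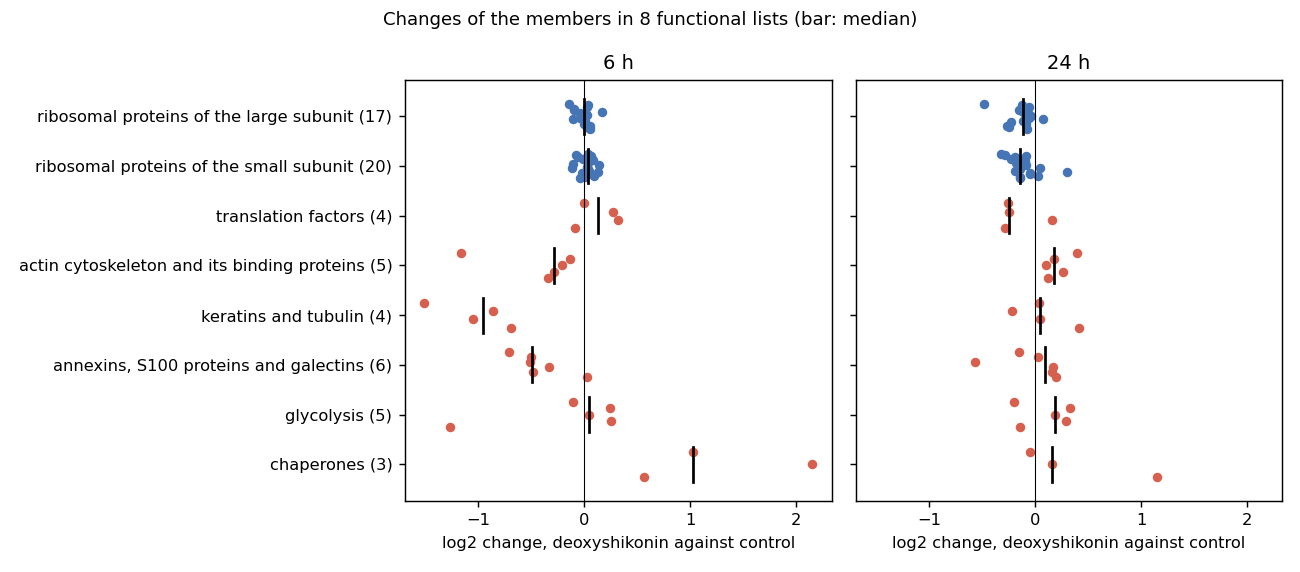
Each point is a member's log2 change, deoxyshikonin against control on log2(TPM + 1), at 6 h (left) and 24 h (right), grouped in 8 lists with the number of members in brackets; the black bar is the median of the list. At 6 h the ribosomal proteins sit around 0 while keratins and tubulin lie on the side of lower and chaperones on that of higher values, and at 24 h all points but those of S100A6 and HSPB1 lie between -0.5 and 0.5.

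The comparison of treated cells at 24 h with treated cells at 6 h used no library that chose the members. It found 75 changed members, 45 higher and 30 lower at 24 h, or 60% against 75% of all tested genes, with 36% against 46.8% higher and 24% against 28.2% lower. Under all 4 scalings 27 were higher and 15 lower (35.2% and 25.9% of all tested genes), and with median-of-ratios rescaling 27 were higher and 53 lower (75.7% of all tested genes changed, 40.1% higher and 35.5% lower). The change was at least 0.5 in 23 members, 18 higher and 5 lower (44.6%, 30.1% and 14.4%), and at least 1 in 9, 7 higher and 2 lower (16.1%, 11.8% and 4.29%). The libraries did not overlap in 81 members (76.5% of all tested genes). The higher ones included KRT7 (1.61 ± 0.05 (SE, adjusted p = 3.36e-10)), ACTB (1.29 ± 0.09 (SE, adjusted p = 1.63e-07)) and WFDC2, a secreted protease inhibitor (1.33 ± 0.06 (SE, adjusted p = 7.33e-09)). The lower ones were led by UBB (-2.78 ± 0.07 (SE, adjusted p = 1.27e-10)), HSPA8 (-2.66 ± 0.06 (SE, adjusted p = 1.32e-10)), HSP90AB1 (-0.98 ± 0.05 (SE, adjusted p = 1.06e-08)), MT1X (-0.81 ± 0.05 (SE, adjusted p = 3.7e-08)) and SAT1 (-0.61 ± 0.05 (SE, adjusted p = 6.23e-07)). WFDC2 was also higher at 24 h without treatment, at 1621, 1416 and 1539 against 847, 864 and 900.5 TPM.

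The treatment effect at 24 h minus that at 6 h was tested as an interaction in the same fit. It passed the threshold in 83 members, 37 with a higher and 46 with a lower value at 24 h, or 66.4% against 63% of all tested genes, with 29.6% against 45% and 36.8% against 18% in each direction. Under all 4 scalings it did so in 25 and 22 (28.5% and 17.8% of all tested genes), and with median-of-ratios rescaling in 25 and 79 (60.9% of all tested genes in all, 31.7% and 29.2% in each direction). The difference was at least 0.5 in 27 members, 22 positive and 5 negative (40.8%, 30.7% and 10.1%), and at least 1 in 14, 10 positive and 4 negative (12.9%, 10.1% and 2.81%). Among the 10 positive ones are the 4 identifiers of wide replicate spread described below, which varied together. By their calls at each time, 10 members were higher and 22 lower at both times on TPM as deposited. Another 11 fell at 6 h but rose at 24 h, 4 rose at 6 h but fell at 24 h, and 28 passed the threshold at 24 h alone, as lower, which is no test of a difference. Such counts were made for the members only, with no share over all tested genes, and the direction of small changes depended on the scaling. For CCN3 the interaction was 0.00 ± 0.05 (SE, adjusted p = 0.979) and for FTL 0.11 ± 0.09 (SE, adjusted p = 0.291), so neither was shown to differ between the times. For UBB it was -3.10 ± 0.09 (SE, adjusted p = 5.41e-09) and for KRT7 1.55 ± 0.06 (SE, adjusted p = 2.77e-08).

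Untreated cells at 24 h and at 6 h are described without a test, since they chose the members. The median log2 difference was 0.09 in the members and -0.07 in all tested genes. In 61 members the 24 h libraries were all above the 6 h libraries, in 22 all below, and in 42 they overlapped. A difference of at least 0.5 in size was seen in 13 members and of at least 1 in 0. The shares over all tested genes are not given for these counts, so they are not read as particular to the members.

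A set of 4 identifiers without a symbol varied together and more widely between replicates than the rest. ENSSSCG00000041875 was at 4317, 2943 and 2385 TPM in untreated and 2649, 2941 and 4034 TPM in treated cells at 6 h, and at 1445, 1235 and 2645 and 6339, 5457 and 7287 TPM at 24 h. Its libraries overlapped at 6 h (0.02 ± 0.29 (SE, adjusted p = 0.961)), and at 24 h the treated ones were all above the untreated ones (1.91 ± 0.29 (SE, adjusted p = 0.00026)). ENSSSCG00000041596, ENSSSCG00000047299 and ENSSSCG00000044834 had log2 changes of 1.76, 1.52 and 1.68 at 24 h (adjusted p = 0.000352, 0.000809 and 0.00064). Pearson correlations of log2(TPM + 1) between the 4 ran from 0.944 to 0.994 over the 12 libraries, which share their scaling. Together they held 1.05%, 0.72% and 0.659% of all TPM in untreated and 0.758%, 0.789% and 1.15% in treated cells at 6 h, and 0.397%, 0.34% and 0.738% in untreated and 1.65%, 1.44% and 1.62% in treated cells at 24 h. Without them the share of the other 121 members was 38.2 ± 0.893% in untreated and 36.2 ± 0.432% in treated cells at 24 h (SD, n = 3 each), a difference of -1.95 points with no overlap (exact permutation p = 0.1, the smallest that 3 against 3 can give). Their removal was chosen after seeing the data. Since all 4 were higher in treated cells at 24 h, it lowers the treated share by itself, so no conclusion is drawn. The untreated libraries also chose the members.

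**Figure D5:**
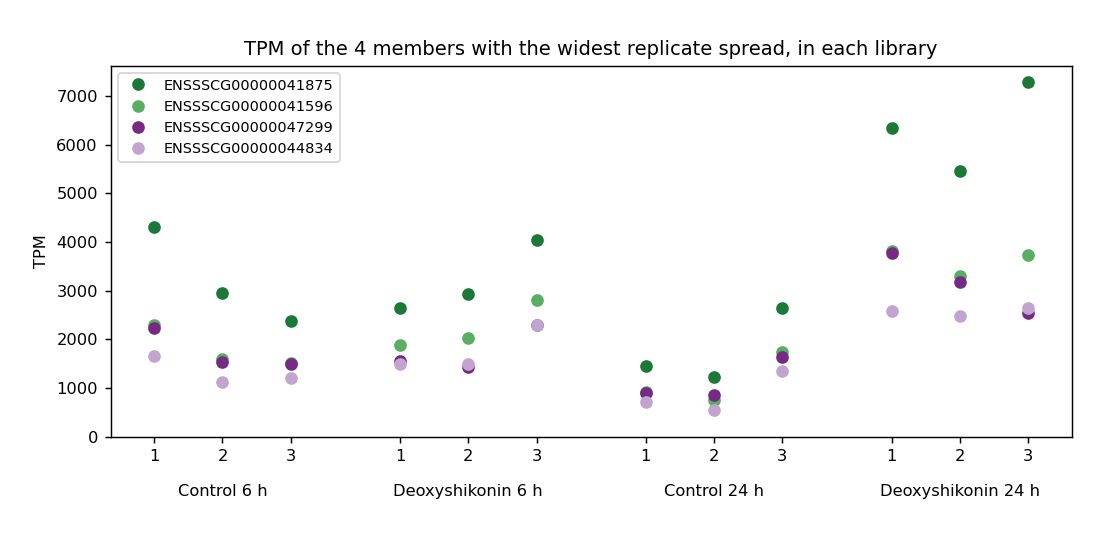
Points give the TPM of the 4 identifiers in each of the 12 libraries, numbered by replicate within each group, on an axis from 0. All 4 are highest in the treated libraries at 24 h, and within the untreated groups 1 library stands above the other two for each identifier.

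The genes above 1000 TPM differed between the groups, and genes near that level also crossed it between the untreated groups: 5 members stood under it in untreated cells at 6 h and 4 at 24 h. At 6 h 126 nuclear Ensembl genes had a mean of at least 1000 TPM in treated cells, of which 106 were members and 20 were not, and 19 members stood under 1000 TPM. The 19 included KRT7, KRT18, CCN3, CTSC, LDHA, MT1X and MYL6. Among the 20 that came in were other chaperone genes: HSP70.2, an inducible HSP70, at 9948 TPM against 387 in untreated cells, HSP90AA1, the inducible HSP90, at 5938 against 905, and HSPA5, the chaperone of the endoplasmic reticulum, at 4828 against 939. SQSTM1, a receptor of selective autophagy, was at 4697 against 124.0 TPM, and HMOX1, which breaks down heme, at 2024 against 16.2 TPM. HSP70.2 has near-identical copies, so its value is uncertain. At 24 h 128 genes reached 1000 TPM in treated cells, 115 of them members and 13 not, and 10 members stood under 1000 TPM, LDHA and MT1X again among them, which were also under it in untreated cells at 24 h (858 and 826 TPM). Untreated cells had 122 such genes at 6 h, 2 of them not members, and 127 at 24 h, 6 of them not members.

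The members whose pattern was most like that of S100A6 over the 12 libraries, by Pearson r of log2(TPM + 1), were RPL7A (0.9585), EZR (0.9490) and CCN3 (0.9132). HSPA8 was most like HSP90AB1 (0.9527) and UBB (0.9437), and KRT7 was most like ENSSSCG00000008115 and ENSSSCG00000039071 (both 0.9925). These are descriptions over libraries that fall into 4 groups and share their scaling.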

How the data were processed

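RNA of IPEC-J2 cells was sequenced in 12 libraries, 3 per group. The deposited table holds TPM per gene identifier, made by the authors, and each deposited column sums to 1000000 within rounding. The submitters' processing notes name fastp, HISAT and RSEM, with no role or version, and the genome build and annotation are not given in the sources used here. Groups and replicate numbers came from the sample titles. Symbols came from a table of gene identifiers that matched 15029 of the 32518, and no coordinates or sequences are given.

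Values were analysed as log2(TPM + 1), so folds of low genes are understated. The 11897 genes with a mean of at least 1 TPM were fitted with limma 3.58.1 in R 4.3.3, all 4 groups in one model with 8 residual degrees of freedom and a trended prior variance, with Benjamini-Hochberg adjustment over all of them and a threshold of 0.05. Interactions and the 24 h to 6 h comparison of treated cells are contrasts of that model. Shares of TPM were compared with exact permutation tests over libraries. The script was tested on simulated data.

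The members and the gene lists were chosen with earlier results of these data known. Named members are the 10 highest, the 5 largest rises and falls at each time, up to 4 per list and those at the threshold, a few of which are not reported here; HBB, CD74, ERBB3, NUDT3, COL19A1, ACTG1, PSAP, PLAU, EZR, COL17A1, CTSC, S100A10, LGALS1, SLC25A3, RPSA, WFDC2 and the genes that entered or left the 1000 TPM level were named after their values were seen. Alternatives were other scalings, filters, pseudocounts, member thresholds, a replicate block and leaving out each library. The stricter count under all 4 scalings and the removal of the 4 identifiers of wide spread were added after the data were seen. Member spans and gene neighbours were searched in RefSeq with blastn 2.17.0+, also after the data were seen.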

Additional observations from a re-analysis of the deposited data

Results flagged for a closer look

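The treatment effect differed between 24 h and 6 h, by an interaction past the limma threshold and of at least 0.5 in size, in 22 of the 52 named members, some of which were named for large changes. Over all 125 members it did so in 27 (21.6%), against 40.8% of all tested genes. The values below are the log2 change at 24 h minus that at 6 h.

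The chaperone and ubiquitin genes that were high in treated cells at 6 h had negative values: -3.10 for UBB, -1.99 for HSPA8 and -1.07 for HSP90AB1. SAT1, of polyamine breakdown, had -1.14, and EEF2, of elongation, had -0.52. HSPB1 went the other way at 0.59, and its interaction did not pass after median-of-ratios rescaling (0.35) or without replicate 1 of the untreated cells at 6 h (0.47).

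The cytoskeleton genes had positive values: 1.56 for ACTB, 1.55 for KRT7, 1.11 for TUBA1B, 1.10 for KRT18, 0.64 for KRT8 and 0.55 for CFL1. In the annexin and S100 group the values were 0.64 for S100A11, 0.55 for ANXA1 and 0.54 for ANXA2. LDHA had 1.12. Of the identifiers without a symbol, ENSSSCG00000008115 had 1.72 and ENSSSCG00000017448 had 0.95.

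The 4 identifiers with a wide replicate spread had 1.89 (ENSSSCG00000041875), 1.53 (ENSSSCG00000047299), 1.45 (ENSSSCG00000041596) and 1.28 (ENSSSCG00000044834).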

How the results depend on the processing

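Over 52 named members, alternatives kept direction and side of the threshold in 4022 values, ended a call in 191 and added one in 87. In 16 they turned the sign of a called value or brought it to 0.0000. The 16 were small. After median-of-ratios rescaling they were 0.0585 for ENSSSCG00000033310, 0.0140 for RPL3, 0.0429 for RPL27 and 0.0609 for RPL7A at 6 h, -0.0087 for RPL27 at 24 h, -0.0515 for its interaction and -0.0164 for it in treated cells over time. After quantile normalization they were -0.0492 for RPS24, -0.0135 for RPL10 and -0.112 for RPS12 at 6 h, -0.0110 for RPL27 at 24 h, 0.0335 for RPS2 and 0.0537 for TPT1 in the interaction, and 0.0000 for ENSSSCG00000004489, 0.0203 for RPLP1 and 0.0684 for ENSSSCG00000033310 in treated cells over time.

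Counts of changed members are given as higher and lower. Median-of-ratios rescaling gave 57 and 28 at 6 h, 17 and 73 at 24 h, 25 and 79 for the interaction, and 27 and 53 in treated cells over time. Quantile normalization gave 13 and 77, 25 and 64, 47 and 22, and 64 and 18. Scaling to the other nuclear genes gave 54 and 18 in treated cells over time. The same call under all 4 scalings gave 13 and 27 (40 in all) at 6 h, 16 and 51 at 24 h, 25 and 22 (47 in all) for the interaction and 27 and 15 (42 in all) over time. A minimum change of 0.5 left 26 (8 and 18), 14 (9 and 5), 27 (22 and 5) and 23 (18 and 5), and a minimum of 1 left 14 (6 and 8), 8 (7 and 1), 14 (10 and 4) and 9 (7 and 2). With members from 500 TPM the counts were 148 (46 and 102), 157 (61 and 96), 158 (85 and 73) and 157 (94 and 63), and from 2000 TPM they were 30 (11 and 19), 47 (14 and 33), 43 (17 and 26) and 33 (21 and 12), since more or fewer genes were members.

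Leaving out each library gave 58 to 71 changed members at 6 h (20 to 23 higher, 38 to 48 lower), 73 to 84 at 24 h (25 to 29, 48 to 55), 74 to 84 for the interaction (34 to 39, 39 to 49) and 63 to 78 over time (40 to 48, 23 to 30).

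Shares of TPM, in the order untreated and treated at 6 h, untreated and treated at 24 h, were 44.1%, 45.4%, 45.9% and 45.1% from 500 TPM and 27.8%, 26.5%, 29.9% and 28.4% from 2000 TPM. Without the mitochondrial genome in the total they were 41.5%, 41.3%, 44.1% and 42.5%, and without the assembled loci as well 42.6%, 42.1%, 45.4% and 43.7%. Members chosen over all 12 libraries held 36.3% and 40.2% at 6 h, those chosen by the untreated cells of the other time held 37% in treated cells at 6 h and 37.2% at 24 h, and members without the 4 identifiers of wide spread held 35.7%, 35.9% and, in treated cells at 24 h, 36.2%. The difference in share at 6 h became -1.38 points from 2000 TPM, -0.18 without the mitochondrial genome and -0.464 without the assembled loci as well, and that of treated cells over time became -0.314 from 500 TPM and -2.07 with members chosen over all 12 libraries. The latter choice made the 6 h difference larger, with shares of 36.3% in untreated and 40.2% in treated cells. Leaving out each library, shares were 36.4% to 36.7%, 36.6% to 36.9%, 38% to 39.1% and 37.5% to 38%, with differences of 0.111 to 0.345 points at 6 h, -1.33 to -0.256 at 24 h and 0.734 to 1.25 in treated cells over time.

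Same-numbered libraries correlated at -0.000441 to 0.109 in their deviations from the group means. A library correlated best with its own number in 6 of 6 cases at 6 h, 4 of 6 at 24 h and 6 of 6 over time in treated cells. Whether the numbers mark a weak pairing is not known, since no label says so. With a replicate block the fit called 68 members at 6 h, 82 at 24 h, 83 for the interaction and 76 in treated cells over time. TPM keep no depth, which limits any statement on counting error.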
